A study of Homo sapiens with 18 samples.

Results

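The comparison set DDX3Yoe cells, KNS-42 cells that carry a codon-optimised DDX3Y transgene, against parental KNS-42 cells, both with a control guide RNA, so the endogenous DDX3X gene was not the target of the guide in either group. The 6 libraries were chosen by their labels, 3 of DDX3Yoe cells and 3 of parental cells with the AAVS1 guide, out of 18 libraries in all. KNS-42 is an established glioma cell line. All cells expressed the Cas9 nuclease, grew in medium with puromycin and received a guide by lentivirus, and were collected for RNA on day 7 after that transduction. The AAVS1 guide directs Cas9 to a safe-harbour site and served as the negative control. The other 12 libraries were DDX3Yoe cells and parental cells with guide 395, which targets endogenous DDX3X, and cells with a codon-optimised DDX3X transgene (DDX3Xoe) with either guide, 3 libraries a group. Each cell line has 1 number in the labels, which do not say whether it is a clone or a pool, what drives the transgene, or whether replicates came from separate cultures. The p-values therefore rest on how much these samples vary, and that variation may be technical in part.

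DDX3X and DDX3Y are the X-linked and Y-linked copies of one DEAD-box RNA helicase. The enzyme unwinds RNA with the energy of ATP, helps ribosomes start on mRNAs with structured leaders, joins stress granules, and takes part in the signalling from viral RNA sensors to interferon through the kinase TBK1. DDX3X is known as a recurrently mutated gene in medulloblastoma, and DDX3Y can stand in for it in several cell types. The question of the comparison was what added DDX3Y does to the transcriptome while endogenous DDX3X is in place. Since the transgene and the cell line change together, an effect of DDX3Y cannot be told apart from other differences between the lines.

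The libraries were made with a kit that reads the 3' ends of polyadenylated transcripts, and the values are read counts that the authors divided by 1 size factor per library, called normalised read counts here. The 3 DDX3Yoe libraries held 9304031, 6881021 and 8799325 reads and the 3 parental libraries 13201602, 8593648 and 8007934 reads. No gene passed the threshold in the main comparison: 0 of 15228 tested genes (0%) had an adjusted p under 0.05 (limma with an intensity trend, Benjamini-Hochberg adjustment), and the smallest adjusted p was 0.967. With edgeR's quasi-likelihood test and with DESeq2 on the recovered whole reads the count was also 0, with smallest adjusted p-values of 0.984 and 0.187. Unadjusted, 402 genes had a limma p under 0.05 (2.64%), of which 256 were higher in DDX3Yoe cells (1.68%) and 146 lower (0.959%), against 408 genes in edgeR and 530 in DESeq2. The directions below are therefore those of measured values, not of called genes.

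The transgene itself could not be read from these counts. DDX3Y (ENSG00000067048, chromosome Y) had 0 reads in all 3 DDX3Yoe libraries and in all 3 parental libraries, as in the other 12. A count of 0 allows up to 3 reads in a library, which is at most 0.436 CPM in these 6 libraries (DDX3Yoe replicate 2), for counting error only. The other Y-linked genes of the X-Y pairs were at 0 as well, so 13 of 13 Y-linked members had no read in any of the 18 libraries. A codon-optimised transcript need not match the reference gene, and a 3' tag lies near the polyadenylation site, which a transgene need not share with the gene, so the 0 does not check the label DDX3Yoe. To show how alike the endogenous copies are where the coding sequence ends, the last 60 coding bases are given from GENCODE 29 on GRCh38, for DDX3X at chrX:41347660-41347719 and for DDX3Y at chrY:12918063-12918122, both on the plus strand and with the stop codon included. Capitals mark the 2 bases that differ.
DDX3X: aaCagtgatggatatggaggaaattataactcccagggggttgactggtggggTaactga
DDX3Y: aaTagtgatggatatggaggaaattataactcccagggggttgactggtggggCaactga
The other 58 of the 60 bases are identical, in coding sequences of 1986 and 1980 bases without the stop codon. The codon-optimised sequences were not used here.

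DDX3X (ENSG00000215301, chromosome X, 41333284 to 41364472 on GRCh38, plus strand) had normalised read counts of 1379, 1557 and 1439 in DDX3Yoe cells, against 1780, 1923 and 1729 in parental cells. All 3 DDX3Yoe values lay below all 3 parental values. The means were 1458 ± 90.5 in DDX3Yoe cells and 1811 ± 100 in parental cells (SD, n = 3 each), so DDX3Yoe cells had 80.5% of the parental level. The log2 fold change was -0.31 (95% interval -0.94 to 0.32), with an unadjusted limma p of 0.312 over all genes, and did not pass. The interval and this p rest on a spread pooled over all 18 libraries, not on these 6 alone. That spread includes DDX3Xoe cells, where the SD of DDX3X was 420 with the control guide and 449 with guide 395. A two-sided exact permutation test of the 6 values gave p = 0.1, the smallest p that 3 against 3 libraries allow. With edgeR and DESeq2 the log2 fold change was -0.32 each. Over all other settings tried it lay between -0.36 and -0.25.

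**Figure D1:**
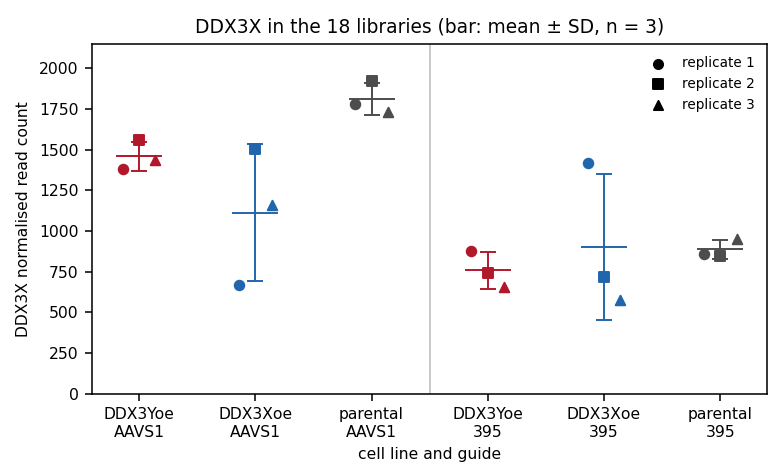
Normalised read counts of DDX3X (vertical axis) in each of the 18 libraries, by cell line and guide, with marker shapes for the replicate number and bars for mean ± SD (n = 3). With the control guide the 3 DDX3Yoe libraries lie between 1379 and 1557, below the 3 parental libraries at 1729 to 1923.

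The same pair of cell lines was also measured with guide 395, in 6 other libraries. They do not enter the control-guide means and fold changes, but they enter the estimate of the spread behind its p-values and intervals. There DDX3X had 878, 739 and 653 normalised reads in DDX3Yoe cells, against 861, 844 and 953 in parental cells. The groups overlapped, with means of 757 ± 114 in DDX3Yoe cells and 886 ± 58.8 in parental cells (SD, n = 3 each), a log2 fold change of -0.24 and a two-sided exact permutation p of 0.3. In DDX3Xoe cells with the control guide the values were 668, 1504 and 1162, which overlapped the DDX3Yoe values and lay below the parental ones. The library with 668 reads, labelled DDX3Xoe AAVS1 replicate 1, runs against its guide label. So does its counterpart labelled 395, with 1416, so fits without both were added. Both entered the pooled spread behind the DDX3X interval and limma p above. Without them the SE of DDX3X for DDX3Xoe against parental cells with the control guide was 0.22, against 0.30 with them. That is another comparison than the main one. For DDX3Yoe against parental cells, the smallest adjusted p of DDX3X over all other settings of limma, edgeR and DESeq2, that fit included, was 0.877.

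The identity markers of a glioma line were present in both groups. Of 12 markers set out for KNS-42, 11 reached 10 normalised reads and the oligodendrocyte lineage factor OLIG2 had 0 reads in all 6 libraries. The neural stem cell factor SOX2 had 18049 ± 2558 in DDX3Yoe cells and 19173 ± 5101 in parental cells, and the astrocyte filament gene GFAP had 3212 ± 2185 in DDX3Yoe cells and 4482 ± 3240 in parental cells (SD, n = 3 each). Markers of other cell types were low in part. The sum of 6 microglia markers was 1.29 to 13 in DDX3Yoe libraries and 0 to 19.0 in parental libraries. AIF1, C1QA and TYROBP were at 0, and the 4 markers of T and B cells were at 0 in all 6. SYT1, COL1A1 and KRT18 were not low. Their means exceeded those of the KNS-42 marker DLX2, 87.6 in DDX3Yoe cells and 133 in parental cells. The sum of 4 neuronal markers, nearly all from SYT1, was 543 to 645 in DDX3Yoe libraries and 308 to 624 in parental libraries. The sum of 4 endothelial markers was 20.6 to 42.1 in DDX3Yoe libraries and 9.40 to 29 in parental libraries, and that of 3 oligodendrocyte markers 0 to 4.01 in DDX3Yoe and 0 to 0.671 in parental libraries. The sum of 5 fibroblast markers, mainly COL1A1, was 208 to 427 in DDX3Yoe and 220 to 379 in parental libraries, and that of 4 epithelial markers, mainly KRT18 and KRT8, 203 to 362 in DDX3Yoe and 226 to 308 in parental libraries. COL3A1, KDR and MOG were at 0 in all 6. The part of these other cell type markers in the results below was not tested.

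The parental libraries differed from each other more than the DDX3Yoe libraries did. The median SD of a gene's log2 value was 0.329 among the 3 DDX3Yoe libraries and 0.502 among the 3 parental libraries, and chi-square of the read counts over genes, divided by its degrees of freedom, was 24.2 to 36.2 among DDX3Yoe pairs and 81.8 to 110 among parental pairs. On the first principal component the DDX3Yoe libraries lay between -38.4 and -10.3 and the parental libraries at 63.8, -39.8 and -14.3, with parental replicate 1 apart from the other 5. Mitochondrial reads made up 11.3 to 13.8% of DDX3Yoe libraries and 11.3 to 16.5% of parental libraries, and the 50 most abundant genes 20.3 to 22.8% of DDX3Yoe and 20.5 to 26.9% of parental libraries, with the highest of both shares in parental replicate 2. By Spearman rank correlation r across genes, the closest of all pairs among the 6 was DDX3Yoe replicate 3 with parental replicate 3, with r = 0.981. DDX3Yoe replicate 3 had r = 0.965 with each other library of its own group. Genes are not independent replicates, so this r is a description. With any 1 of these 6 libraries left out, limma called 0 genes, and the number with an unadjusted p under 0.05 was 930 without parental replicate 3, 267 without DDX3Yoe replicate 2 and 284 to 417 with 1 of the other 4 left out. With the replicate number as a block, 1 effect per number shared by all 18 libraries, it was 650 and the number called 0.

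The measurements bound the differences to different degrees. The median 95% interval of a log2 fold change reached 0.848 to either side, and 1.72 in the lowest of 4 equal classes of level, against 0.609 in the highest. For 6058 genes (39.8%) the whole interval lay within 1 on the log2 scale, which is 0.525% of the lowest class and 68.8% of the highest. The median log2 fold change over all genes was -0.03. Differences above 1 in size were measured for 928 genes, 848 of them at or below the 40th percentile of mean level (98.2 normalised reads). The genes with the smallest p were of this kind. GRTP1, which encodes a protein with a TBC domain, had 4, 1 and 0 reads in DDX3Yoe libraries, against 24, 13 and 19 in parental libraries. GALNT8, which encodes a GalNAc-transferase family member, had 0, 0 and 1 reads in DDX3Yoe libraries, against 11, 17 and 11 in parental libraries. The groups did not overlap for either gene, the adjusted limma p was 0.967 for both, and they are named for their p.

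**Figure D2:**
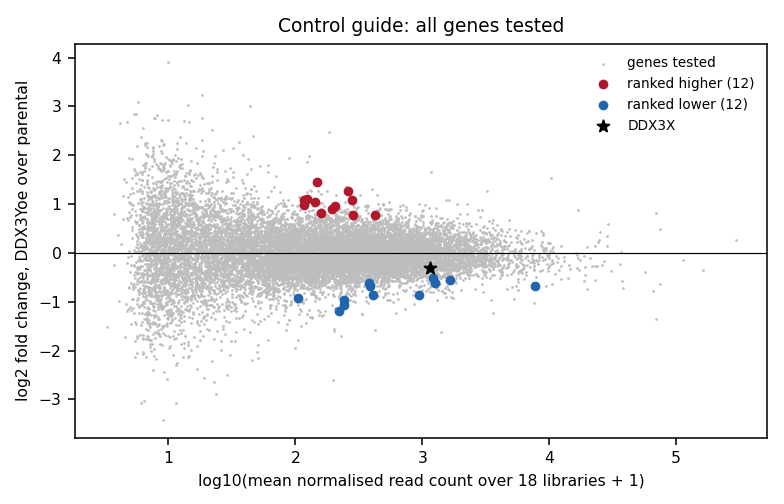
Log2 fold change of DDX3Yoe over parental cells with the control guide (vertical axis) against the log10 mean normalised read count over the 18 libraries (horizontal axis) for the 15228 genes tested. Coloured points are the 12 genes ranked highest in each direction, the star is DDX3X, and most differences above 1 in size lie at low levels.

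Of the genes tested, 759 had all 3 DDX3Yoe values above all 3 parental values (4.98%) and 575 had them all below (3.78%). Among those above the 40th percentile of level with a proper symbol, the 12 with the smallest unadjusted p in each direction are described as values. Their unadjusted limma p-values ran from 0.00452 to 0.0109 for the higher set and from 0.00107 to 0.0191 for the lower set, and none passed adjustment under any alternative tried. Since they were picked for not overlapping and for a small p, their fold changes in these libraries are no support for a difference.

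Several of the genes that lay higher in DDX3Yoe cells encode nuclear regulators. ELF2 (ENSG00000109381, chromosome 4, 139028112 to 139177218 on GRCh38), an ETS family transcription factor, had 194, 155 and 175 normalised reads in DDX3Yoe cells, against 69.8, 71.9 and 117 in parental cells. Parental replicate 3 was the nearest to the DDX3Yoe values, and the log2 fold change was 1.05 ± 0.32 (SE). STAG1 (ENSG00000118007, chromosome 3, 136336233 to 136752403), a subunit of the cohesin ring that holds sister chromatids together, had 382, 308 and 304 in DDX3Yoe cells, against 169, 186 and 221 in parental cells. The groups lay well apart, and the log2 fold change was 0.78 ± 0.24 (SE). BTAF1, an ATPase that removes the TATA-binding protein from DNA, had 331, 387 and 284 in DDX3Yoe cells, against 145, 107 and 244 in parental cells, where replicate 3 was again the highest. KAT6B, a histone acetyltransferase, had 497, 511 and 562 in DDX3Yoe cells, against 359, 207 and 380 in parental cells. The low parental value is replicate 2. The zinc finger gene ZNF678 had 148 to 241 in DDX3Yoe cells and 97.1 to 133 in parental cells.

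Other genes of the higher set act in RNA processing, signalling and the cell skeleton. RBM4, an RNA-binding protein that regulates splicing and translation, had 120, 119 and 129 normalised reads in DDX3Yoe cells, against 55.7, 37.2 and 91.5 in parental cells. The DDX3Yoe values are close together and the parental ones spread, with means of 123 ± 5.81 in DDX3Yoe cells and 61.5 ± 27.6 in parental cells (SD, n = 3 each). PTPN13, a protein tyrosine phosphatase, had 413, 365 and 335 in DDX3Yoe cells, against 142, 119 and 211 in parental cells, a log2 fold change of 1.27 ± 0.40 (SE). SYNJ1, a lipid phosphatase of synaptic vesicle recycling, had 177, 191 and 128 in DDX3Yoe cells, against 70.5, 75.7 and 80.3 in parental cells. The means were 165 ± 33.0 in DDX3Yoe cells and 75.5 ± 4.92 in parental cells (SD, n = 3 each), without overlap. The centrosomal protein gene CEP112 and the kinase gene NEK11 had log2 fold changes of 0.90 and 0.98. CRYBG3, a crystallin-domain gene, had the largest of the 12, 1.44 ± 0.51 (SE), with 217, 168 and 179 in DDX3Yoe cells, against 41.6, 47.1 and 160 in parental cells, so that parental replicate 3 all but reached the DDX3Yoe range. GOLGA2P5 is a pseudogene of a Golgi protein and its reads may be shared with related copies (log2 fold change 0.95).

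The lower set held genes of lipids, mitochondria, membranes and antigen presentation. GLTP (ENSG00000139433, chromosome 12, 109850943 to 109880488 on GRCh38), the glycolipid transfer protein, had 150, 169 and 205 normalised reads in DDX3Yoe cells, against 322, 443 and 278 in parental cells. It had the smallest unadjusted limma p of the 24 genes, 0.00107, and a log2 fold change of -0.97 ± 0.25 (SE). HLA-DQA1 (ENSG00000196735, chromosome 6, 32628179 to 32647062), a chain of an MHC class II molecule, had 145, 196 and 185 in DDX3Yoe cells, against 442, 363 and 306 in parental cells. The log2 fold change was -1.07 ± 0.31 (SE), and reads may be shared with its near copy in the same cluster. ACOT13, a mitochondrial acyl-CoA thioesterase, had 132, 172 and 144 in DDX3Yoe cells, against 510, 409 and 186 in parental cells. Its log2 fold change of -1.19 was the most negative of the 12, and parental replicate 3 lay close to the DDX3Yoe values. BLOC1S2, a subunit of a complex of lysosome biogenesis, had 757, 588 and 492 in DDX3Yoe cells, against 1043, 1346 and 954 in parental cells. ANXA1, a calcium-dependent membrane-binding protein, had 8054, 6369 and 7376 in DDX3Yoe cells, against 12727, 13022 and 9210 in parental cells. The log2 fold change of ANXA1 was -0.67 ± 0.25 (SE), and the groups were apart in all 6 libraries.

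The lower set also held genes of chromatin, transport and proteolysis. KANSL3, a subunit of a histone acetyltransferase complex, had 1388, 1351 and 1400 in DDX3Yoe cells, against 1913, 2321 and 1910 in parental cells. The DDX3Yoe libraries lay close together, at 1380 ± 25.5, against 2048 ± 236 in parental cells (SD, n = 3 each), and the log2 fold change was -0.56. SLC39A1, a zinc importer, had 1106, 1099 and 922 in DDX3Yoe cells, against 1594, 1672 and 1253 in parental cells. MRPL17, a mitochondrial ribosomal protein, had 382, 288 and 296 in DDX3Yoe cells, against 467, 621 and 454 in parental cells, and CISD2, an iron-sulphur protein of the endoplasmic reticulum and outer mitochondrial membrane, had a log2 fold change of -0.61. PPIL1, a spliceosomal cyclophilin, and the carboxypeptidase PRCP had log2 fold changes of -0.87 and -0.62, each with parental replicate 2 as the highest library. ABHD6, a hydrolase of monoacylglycerols, had 102, 80.0 and 41.1 in DDX3Yoe cells, against 138, 158 and 107 in parental cells, with DDX3Yoe replicate 3 the lowest of the 6.

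The guide 395 libraries give these 24 genes a second fold change from other libraries, which had a part in the choice of the genes only through the shared estimate of the spread and the mean level. Of the 24, 21 had the same sign there (87.5%), against 61.6% of all genes and 78.6% of the 402 genes with an unadjusted p under 0.05. The median size of the log2 fold change of the 24 was 0.32 with guide 395 and 0.91 with the control guide, where they were chosen for a small p, so that 24 of 24 were smaller with guide 395. So were 357 of the 402 genes with an unadjusted p under 0.05, while over all genes the median size was 0.40 with guide 395 and 0.27 with the control guide. Nothing is read from the smaller values of the 24. None was called with guide 395, where 31 of 15228 genes were (0.204%), and 5 had an unadjusted p under 0.05 (20.8%, against 13.3% of all genes). These 5 were STAG1 (log2 fold change 0.59), SYNJ1 (0.82), KAT6B (0.58), HLA-DQA1 (-0.82) and SLC39A1 (-0.50), and for STAG1, KAT6B and SLC39A1 the 3 DDX3Yoe libraries again did not overlap the 3 parental ones, as for 10.8% of all genes higher and 14% lower there. GOLGA2P5 (-0.18), CEP112 (-0.20) and PPIL1 (0.08) had the opposite sign with guide 395. The test of whether the difference between cell lines depends on the guide called 0 of 15228 genes with limma (737 at an unadjusted p under 0.05, 4.84%) and 0 with edgeR (758), and 9 with DESeq2 (905), none of them among the 24.

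Read the other way, the 31 genes called between the same cell lines with guide 395 (11 higher in DDX3Yoe cells, 0.0722%, and 20 lower, 0.131%) all had a log2 fold change under 1 in size with the control guide, as did all but 928 of the 15228 genes tested. For 18 of the 31 the 95% interval lay within 1 (39.8% of all genes), and 23 of the 31 had the same sign (61.6% of all genes). NES (ENSG00000132688, chromosome 1, 156668763 to 156677397 on GRCh38), the intermediate filament gene nestin of neural progenitors, was the only one of the 31 with an unadjusted p under 0.05 with the control guide. It had 1054, 996 and 1167 normalised reads in DDX3Yoe cells, against 599, 804 and 645 in parental cells, without overlap. The log2 fold change was 0.66 ± 0.26 (SE) with the control guide, unadjusted p 0.0205 in limma and adjusted p 1.00, against 2.10 ± 0.26 (SE) with guide 395, where it was called (adjusted p 0.00338). COL1A1, a chain of type I collagen, had 399, 185 and 239 in DDX3Yoe cells, against 342, 217 and 303 in parental cells with the control guide. These overlapped, with a log2 fold change of -0.12 (95% interval -0.79 to 0.55), while the value with guide 395 was 2.11. PTGS2, the inducible cyclooxygenase, had a control-guide log2 fold change of 0.04 (95% interval -0.67 to 0.75) and -2.09 with guide 395. For COL1A1 and PTGS2 the difference between the guides was called by DESeq2 (adjusted p 0.00973 and 0.0344) and not by limma (adjusted p 0.343 and 0.581).

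DDX3Yoe cells can also be set directly against DDX3Xoe cells with the control guide. Limma called 0 of 15228 genes (0%), and 136 had an unadjusted p under 0.05 (0.893%). The count was 0 too with edgeR (176 unadjusted) and with DESeq2 (251 unadjusted). The 95% interval of the log2 difference lay within 1 for 6792 genes (44.6%). For DDX3X the log2 fold change of DDX3Yoe over DDX3Xoe cells was 0.47 ± 0.30 (SE), and 0.14 ± 0.22 without both replicate 1 libraries labelled DDX3Xoe. Without those libraries limma called 0 genes and 191 had an unadjusted p under 0.05. DDX3Xoe against parental cells, which shares the parental libraries with the main comparison, also gave 0 calls (150 unadjusted, 0.985%; edgeR 0 and 142, DESeq2 0 and 220). Side by side, ELF2 had a log2 fold change over parental cells of 1.05 in DDX3Yoe cells and 0.40 in DDX3Xoe cells, the second being 0.66 without both replicate 1 libraries. STAG1 had 0.78 in DDX3Yoe cells and 0.73 in DDX3Xoe cells (0.85 without them), GLTP -0.97 in DDX3Yoe cells and -0.49 in DDX3Xoe cells (-0.67 without them), and HLA-DQA1 -1.07 in DDX3Yoe cells and -1.0 in DDX3Xoe cells (-0.77 without them).

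Among 27 gene lists with 880 genes, 795 were tested, 0 were called, and 11 had an unadjusted p under 0.05 (1.38%, against 2.64% of all genes). The 95% interval lay within 1 for 314 of the 795. List medians were above 0 for 10 lists and below 0 for 17, and the lists overlap in part. Of all genes tested, 47.3% lay above 0 and 52.7% below, the shares to set beside the counts of list members that follow. For 22 lists the medians of the 6 libraries overlapped between DDX3Yoe and parental cells. The 5 separated ones were the DEAD-box helicases, the DDX3 protein partners, the X-Y pairs and the stress granule proteins, all higher in DDX3Yoe cells, and the translation factors, lower. Of single genes, 4.98% lay apart higher and 3.78% lower, but a list median is another measure, for which these shares are no background. The gaps can be small, with helicase medians of 0.051 to 0.179 in DDX3Yoe and -0.016 to 0.0173 in parental libraries. Whether 5 separated lists exceed what 3 against 3 libraries give without a difference was not tested.

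No gene on the lists close to the biology of DDX3 was called. Of 51 DEAD-box and DEAH-box helicases tested, 0 were called, 29 lay above 0 and 22 below, the median log2 fold change was 0.09 against -0.03 for all genes, and the interval lay within 1 for 33. DHX40, a DEAH-box helicase, had 2825, 3056 and 2612 normalised reads in DDX3Yoe cells, against 2059, 2168 and 2299 in parental cells. Its log2 fold change was 0.38 ± 0.18 (SE, unadjusted limma p 0.0468) without overlap, and 0.82 with guide 395. DDX20, a helicase of the SMN complex, had 189 to 330 in DDX3Yoe cells and 154 to 219 in parental cells, which overlap. Of 21 tested protein partners of DDX3, 12 lay above 0, with a median of 0.09. ATXN2, an RNA-binding protein of stress granules, had 734, 800 and 727 in DDX3Yoe cells, against 594, 546 and 547 in parental cells, a log2 fold change of 0.42 ± 0.19 (SE) without overlap. TBK1, the kinase that DDX3X binds in interferon signalling, had 155, 96.8 and 84.2 in DDX3Yoe cells, against 113, 33.5 and 72.5 in parental cells, which overlap.

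Stress granule proteins had the highest list median, 0.25, with 19 of 22 members above 0 and 2 at an unadjusted p under 0.05. Besides ATXN2 this was EWSR1, an RNA-binding protein, with 1480, 1739 and 1832 normalised reads in DDX3Yoe cells, against 1521, 557 and 1334 in parental cells, which overlap. The low value was parental replicate 2, the library with the highest mitochondrial share, and without it the list median was 0.13. The part of that library's composition in the list median was not tested. In the guide 395 libraries the median was 0.20, with 15 of 22 above 0. Of 44 translation initiation and elongation factors, 32 lay below 0 with a median of -0.13, but it was -0.01 without parental replicate 1. The helicase eIF4A2 gene EIF4A2 had 904, 930 and 882 in DDX3Yoe cells, against 1640, 1268 and 1070 in parental cells, without overlap, a log2 fold change of -0.53 ± 0.31 (SE). EIF3I, a subunit of the scaffold eIF3, had 970 to 1212 in DDX3Yoe cells and 1102 to 1778 in parental cells. All 6 mRNAs listed for DDX3-dependent translation overlapped between the groups, with a median of -0.26 that was -0.05 without parental replicate 1. DVL2, an adaptor of Wnt signalling, had 424, 409 and 407 in DDX3Yoe cells, against 414, 693 and 440 in parental cells. CCNE1, which encodes cyclin E1, had 78.2 to 112 in DDX3Yoe cells and 45.7 to 100.5 in parental cells. The levels of these mRNAs say nothing of translation, which was not measured here.

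The 12 X-linked members of X-Y pairs, all tested, lay above 0 for 7, with a median of 0.21. ZFX, a zinc finger transcription factor, had 393, 297 and 353 in DDX3Yoe cells, against 283, 144 and 320 in parental cells, which overlap. USP9X, a deubiquitinase, had 941, 1112 and 1176 in DDX3Yoe cells, against 792, 837 and 892 in parental cells. These did not overlap, with a log2 fold change of 0.35 (95% interval -0.17 to 0.88) and 0.33 with guide 395, where the groups overlapped. DDX3X itself was among the 5 members below 0.

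Interferon-stimulated genes had the lowest list median, -0.40, with 39 of 52 tested members below 0, 0 called and 1 at an unadjusted p under 0.05. The direction rested on 1 library. DDX3Yoe replicate 2 had a list median of -1.47 relative to the parental means, against 0.46 and 0.12 in the other DDX3Yoe libraries and -0.33, -0.45 and 0.63 in the parental libraries, and without it the list median was 0.25. IFI6, an interferon-induced mitochondrial protein, had 41877, 7073 and 38033 normalised reads in DDX3Yoe cells, against 43776, 65589 and 66485 in parental cells. DDX3Yoe replicate 2 is the low value, the groups did not overlap, and the log2 fold change was -1.36 ± 0.62 (SE). TRIM22, an antiviral ubiquitin ligase, had 526, 154 and 197 in DDX3Yoe cells, against 858, 287 and 479 in parental cells, which overlap. In bulk RNA, fewer responding cells and less RNA per cell cannot be told apart. The 13 tested genes of nucleic acid sensing and the 21 NF-kB and inflammatory genes had medians of -0.10 and -0.02, and both were above 0 without DDX3Yoe replicate 2 (0.11 and 0.34), the second also without parental replicate 1 (0.03) or parental replicate 3 (0.36). TRAF3, an adaptor of the sensing pathway, had 138, 156 and 137 in DDX3Yoe cells, against 227, 185 and 148 in parental cells, which overlap. REL, a subunit of NF-kB, had 238, 268 and 314 in DDX3Yoe cells, against 152, 156 and 231 in parental cells, without overlap (log2 fold change 0.62, 95% interval -0.16 to 1.40). NFKBIE, an inhibitor of NF-kB, had 23.2 to 66.1 in DDX3Yoe cells and 57.7 to 92.6 in parental cells. With guide 395 the interferon-stimulated list had a median of -0.91, with 47 of 52 below 0 and 1 called. Mean IFI6 there was 70436 in DDX3Yoe cells and 184740 in parental cells, against 28994 and 58617 in the same order with the control guide. Since guide 395 targets endogenous DDX3X, the median of -0.91 is no second measure of the control-guide difference.

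Energy and protein turnover genes lay lower as lists, with no member called. Of 55 nuclear genes of oxidative phosphorylation 48 lay below 0, with a median of -0.30, and the median was -0.07 without parental replicate 2. NDUFB4, a subunit of complex I, had 1131, 1119 and 1027 normalised reads in DDX3Yoe cells, against 1660, 1897 and 1011 in parental cells, so that parental replicate 3 was the lowest of the 6. ATP5PO, a subunit of the ATP synthase, had 1214, 1295 and 904 in DDX3Yoe cells, against 2090, 2081 and 1171 in parental cells, with parental replicate 3 inside the DDX3Yoe range. The 15 mitochondrially encoded transcripts had a median of -0.26, which was 0.02 without parental replicate 2, the library with 16.5% mitochondrial reads. MT-ND1, a complex I subunit, had 16013, 12774 and 14655 in DDX3Yoe cells, against 33792, 26049 and 15806 in parental cells. MT-CYB, of complex III, had 48862 to 77604 in DDX3Yoe cells and 45005 to 159900 in parental cells, and both genes overlapped. Proteasome subunits lay below 0 for 25 of 31, with a median of -0.20 and -0.08 without that library. PSMB7, a catalytic subunit, had 1325, 1001 and 1296 in DDX3Yoe cells, against 1615, 3561 and 1486 in parental cells, where replicate 2 is the high one. PSMD12, of the regulatory particle, had 495 to 780 in DDX3Yoe cells and 424 to 596 in parental cells. Ribosomal protein genes lay below 0 for 59 of 78, with a median of -0.15 and -0.02 without parental replicate 2. RPL41, whose reads may be shared with pseudogene copies, ran the other way, with 1998, 2095 and 1454 in DDX3Yoe cells, against 495, 919 and 1391 in parental cells. RPL12 had 1237 to 1799 in DDX3Yoe cells and 1532 to 2883 in parental cells. With guide 395 the medians of these 4 lists were 0.05, 0.20, 0.19 and 0.34, all above 0.

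Some lists set replicate 3 of both cell lines apart. The amino acid response (ATF4) list had a median of 0.87 in DDX3Yoe replicate 3 and 1.00 in parental replicate 3, against -0.71 to -0.50 in the other DDX3Yoe libraries and -0.74 to -0.37 in the other parental libraries. CEBPB, a transcription factor of this response, had 183, 170 and 533 normalised reads in DDX3Yoe cells, against 457, 186 and 739 in parental cells. ALDH1L2, a mitochondrial enzyme of folate metabolism, had 27.8, 29.7 and 131 in DDX3Yoe cells, against 9.40, 2.48 and 88.1 in parental cells. Replicate 3 was the highest library in each group for both genes. Chaperones of the endoplasmic reticulum showed the same order, with PDIA4, a disulphide isomerase, at 644, 654 and 1727 in DDX3Yoe cells, against 1179, 933 and 2247 in parental cells, and DNAJB11, a co-chaperone, at 707, 524 and 1124 in DDX3Yoe cells, against 814, 804 and 1787 in parental cells. Genes of G2/M and mitosis were lowest in replicate 3, with list medians of 0.86, 0.13 and -0.81 in DDX3Yoe libraries, against 0.07, 0.14 and -0.26 in parental libraries. FOXM1, a transcription factor of the mitotic programme, had 457, 306 and 183 in DDX3Yoe cells, against 581, 533 and 312 in parental cells. CENPF, a kinetochore protein, had 7085, 4775 and 2029 in DDX3Yoe cells, against 2524, 2931 and 2430 in parental cells, a wider range in DDX3Yoe cells than in parental cells. RFC2, of the clamp loader of DNA replication, had 575, 344 and 334 in DDX3Yoe cells, against 531, 799 and 416 in parental cells. PRIM1, a primase subunit, had 67.1, 15.5 and 9.02 in DDX3Yoe cells, against 16.1, 7.44 and 3.35 in parental cells. Between cell lines the medians of the ATF4, chaperone, mitosis and DNA replication lists were -0.14, -0.20, 0.07 and -0.11, and the sign of each changed when some 1 library was left out.

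Lists of cell identity and signalling gave few genes apart. Among 32 tested glioma and forebrain progenitor genes the median was -0.03. Besides NES this list held SOX9, a transcription factor of neural stem cells and glia, with 2056, 2224 and 1541 in DDX3Yoe cells, against 1216, 873 and 1476 in parental cells. The groups did not overlap, with parental replicate 3 nearest to the DDX3Yoe values, and the log2 fold change was 0.72 ± 0.31 (SE). Of 24 cell adhesion and guidance genes 18 lay above 0, with a median of 0.20. EPHA4, an ephrin receptor, had 186, 173 and 133 in DDX3Yoe cells, against 114, 63.3 and 129 in parental cells, close to overlap. CDH4, a cadherin, had 40 to 146 in DDX3Yoe cells and 39.7 to 59.1 in parental cells. In the Wnt pathway 21 of 35 lay above 0, with a median of 0.16, and APC, the scaffold of beta-catenin degradation, had 587, 448 and 463 in DDX3Yoe cells, against 260, 248 and 372 in parental cells. APC had a log2 fold change of 0.78 ± 0.36 (SE) with the control guide and 0.89 with guide 395. TCF7L1, a transcription factor of the pathway, had 107 to 201 in DDX3Yoe cells and 62.0 to 122 in parental cells. PGAM1, a glycolytic mutase counted here with few reads, had 24.9, 15.5 and 14 in DDX3Yoe cells, against 76.5, 26.1 and 42.4 in parental cells, which all but met, and its many pseudogene copies may share its reads. Among 29 tested glycolysis and hypoxia genes the median was -0.14. PFKFB4, a regulator of glycolysis, had 17.2, 25.8 and 27.1 in DDX3Yoe cells, against 41.0, 40.9 and 35.7 in parental cells, without overlap (log2 fold change -0.74, 95% interval -1.54 to 0.05). The medians of the p53, apoptosis, extracellular matrix, heat shock, cholesterol and immediate early lists lay between -0.15 and 0.07, with 0 members called and none at an unadjusted p under 0.05.

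The pair of genes with the smallest p on each of those 6 lists had the following normalised read counts. Of the p53 targets, TP53I3, an oxidoreductase, had 167 to 241 in DDX3Yoe cells and 199.7 to 442 in parental cells, and RRM2B, a ribonucleotide reductase subunit, had 79.2 to 143 in DDX3Yoe cells and 59.5 to 81.2 in parental cells. Of the apoptosis regulators, CASP8, an initiator caspase, had 16.8 to 38.1 in DDX3Yoe cells and 26.1 to 129 in parental cells, and APAF1, the apoptosome scaffold, had 75.1 to 126 in DDX3Yoe cells and 40.9 to 116 in parental cells. The groups overlapped for all 4. In the extracellular matrix and mesenchymal list the groups did not overlap for either gene of the pair, which was picked for a small p. Of its 37 tested members, 1 lay apart higher and 3 lower, against 4.98% and 3.78% of all genes. TAGLN, an actin-binding protein, had 414, 646 and 568 in DDX3Yoe cells, against 796, 706 and 1098 in parental cells, a log2 fold change of -0.67 (95% interval -1.39 to 0.05), and 0.91 with guide 395. TIMP2, a metalloproteinase inhibitor, had 12049, 10642 and 12756 in DDX3Yoe cells, against 14982, 22970 and 14286 in parental cells, a log2 fold change of -0.53 (95% interval -1.11 to 0.05), and 0.33 with guide 395. Both had the opposite sign there. For the pair of heat shock genes, picked in the same way, the groups did not overlap. Of the 23 tested members of that list, 1 lay apart higher and 2 lower. CRYAB, a small heat shock protein, had 485, 568 and 207 in DDX3Yoe cells, against 706, 656 and 582 in parental cells, a log2 fold change of -0.74 (95% interval -1.56 to 0.07), and -1.17 with guide 395. DNAJB6, a co-chaperone, had 878, 765 and 739 in DDX3Yoe cells, against 1029, 1430 and 879 in parental cells, which all but met. SREBF2, the master transcription factor of cholesterol synthesis, had 176 to 280.0 in DDX3Yoe cells and 243 to 450.3 in parental cells, and SC5D, a sterol desaturase, had 144 to 226 in DDX3Yoe cells and 189.7 to 466 in parental cells. Both overlapped, as did the phosphatases DUSP4, with 72.2 to 91.0 in DDX3Yoe cells and 24.8 to 77.2 in parental cells, and DUSP5, with 16.8 to 35.4 in DDX3Yoe cells and 8.68 to 26.2 in parental cells.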

How the data were processed

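RNA of 18 libraries was read from 3' ends with a QuantSeq kit, per the labels' protocols. The deposited values are read counts per gene that the authors divided by 1 size factor per library, a signal without length correction; in all 18 libraries 100% of the values gave whole reads within 0.01. Per the submitters' processing notes the tools included STAR 2.5.2b, RSEM 1.3.0, featureCounts 1.5.1 and limma, with the build GRCh38. The annotation used for counting was not given in the sources used here, nor was the strand setting. Symbols and positions come from GENCODE 29, which held 57446 of 58050 identifiers. Libraries held 5667609 to 13201602 reads.

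From these values log2(value + 1) was tested with limma 3.58.1 in R 4.3.3 on 6 group means over 18 libraries (12 residual degrees of freedom, intensity trend, Benjamini-Hochberg adjustment within a comparison, threshold 0.05), for 15228 genes with 10 or more in at least 3 libraries. A fold change is on the log2(value + 1) scale and understates changes of low genes. The alternatives were edgeR 4.0.16 and DESeq2 1.42.0 on the recovered reads, other pseudocounts, filters and scalings, and leaving out libraries; a fit without both replicate 1 libraries labelled DDX3Xoe was added after seeing the data. The fits were tested on simulated data with large planted changes and each gene's spread capped at the median estimate. That setting was easier than the real data, so it says nothing of power for small differences.

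The genes named are DDX3X, DDX3Y, the 12 per direction with the smallest unadjusted p among genes that did not overlap, above the 40th percentile of level and with a proper symbol, and the 2 with the smallest p in each list. GRTP1, GALNT8, COL1A1, PTGS2, RNU6-611P, AP000907.2 and other list members named for p or a call were chosen after their values were seen. The comparison, the lists and the rule were chosen with earlier results of these data known. Replicate numbers come from the labels, which do not say what they stand for. With the control guide, same-numbered DDX3Yoe and parental libraries deviated together (correlations across genes of 0.213, 0.12 and 0.344). With guide 395 they did not (-0.293, 0.0105 and -0.189). The main test took the libraries as unpaired with either guide. A replicate block over all 18 libraries was run as an alternative.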

Additional observations from a re-analysis of the deposited data

How the results depend on the processing

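The count of 0 genes called between DDX3Yoe and parental cells with the control guide was the same under every alternative run except the fit with no filter on low values, which called 2 genes of very few reads. A replicate block left it at 0, with 650 genes at an unadjusted p under 0.05 (402 without the block). With guide 395, same-numbered DDX3Yoe and parental libraries did not deviate together by the correlations above. There the count of 31 was 263 with the replicate block and 197 in a fit of the compared groups alone. It was 16 with edgeR, 410 with DESeq2 and 71 without both replicate 1 libraries labelled DDX3Xoe. With 1 library left out it was 2 to 18, and the cause of these changes was not tested. The block changed no other call. DDX3Yoe against DDX3Xoe cells gave 3 with no filter, and the dependence on the guide 3 with no filter and 9 with DESeq2. The range of chromosome medians, 0.172, was 0.159 to 0.252 with 1 library left out. For DDX3X and the 24 ranked genes, 550 alternative values held 0 changes of sign and 0 calls. List medians kept their sign in all alternatives for 13 lists and changed it for 14. With 3 libraries a group and 6881021 to 13201602 reads, a median interval of 0.848 to either side bounds most genes only loosely.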

Other observations

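AP000907.2 (ENSG00000255334, chromosome 11, 112015307 to 112016124 on GRCh38, plus strand), annotated as sense intronic inside DIXDC1, had 5, 5 and 8 reads in DDX3Yoe libraries with the control guide and 0, 0 and 0 in parental ones. With guide 395 it had 2, 6 and 2 reads in DDX3Yoe libraries, and the 12 libraries of the other cell lines held 0 reads. Of 58050 identifiers it was the only 1 with at least 2 reads in all 6 DDX3Yoe libraries and at most 1 in every other library, and no identifier met the same rule for DDX3Xoe or parental cells (0 each). It was too low for the filter, and was 1 of the 2 genes called by limma with no filter (adjusted p 0.0494).

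RNU6-611P, a pseudogene of the U6 spliceosomal RNA (chromosome 19, 45047458 to 45047561 on GRCh38), had 23 to 32 reads in DDX3Yoe libraries with the control guide, against 4 to 5 in parental libraries. The normalised counts were 31.8 ± 9.63 in DDX3Yoe and 4.63 ± 1.15 in parental cells (SD, n = 3 each), and the log2 fold change was 2.52 ± 0.56 (SE), with an unadjusted limma p of 0.000269 and an adjusted p of 1.00. With guide 395 the counts were 33.8 ± 6.12 in DDX3Yoe and 5.91 ± 5.25 in parental cells (SD, n = 3 each), a log2 fold change of 2.60 and an adjusted limma p of 0.0521. The higher counts were not particular to DDX3Yoe cells. DDX3Xoe cells had 12 to 18 reads with the control guide (14.8 ± 1.98, SD, n = 3; log2 fold change over parental 1.5, unadjusted limma p 0.0148), and 19 to 42 reads with guide 395 (36.3 ± 20.7, SD, n = 3), a mean as high as in DDX3Yoe cells with that guide. The gene is 1 of many near-identical U6 copies, so its reads are uncertain.

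By chromosome, the median log2 fold change of DDX3Yoe over parental cells with the control guide lay between -0.09 for chromosome 9 and 0.08 for chromosome 10 among the nuclear chromosomes, and was -0.13 for the mitochondrial genes, with 0 genes called on any by limma.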
